A study of Homo sapiens with 10 samples.

Results

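ERG peaks of the prostate cancer line VCaP were set against ERG peaks of RWPE1, a normal prostate line made to express wild-type ERG stably. The comparison rests on 3 of the 10 samples of the series, chosen by their labels: the single ERG ChIP-seq list of VCaP with 7712 peaks, and the lists of RWPE1 replicate 1 with 1901 peaks and replicate 2 with 1953 peaks. Together they hold 11566 of the 30301 peaks deposited in 7 lists. The other ChIP lists, used here only for reference, are of ERG P436A in RWPE1 (ERG with a point mutation) and of the protein EWS in 3 kinds of cell, namely VCaP and the RWPE1 cells of either ERG form. All ERG lists come from the same anti-ERG antibody clone. VCaP cells grew in serum-containing medium and RWPE1 cells in serum-free keratinocyte medium with the selection agents puromycin and hygromycin. The labels list no treatment for VCaP and name none for RWPE1. Cell line, source of ERG and medium cannot be told apart. The labels do not say whether the RWPE1 cells were clonal, nor whether their replicates came from separate cultures.

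ERG is a transcription factor of the ETS family, whose DNA-binding domain recognises a GGAA core. Its gene is silent or nearly so in normal prostate epithelium. VCaP carries the fusion of TMPRSS2, an androgen-regulated gene, with ERG, which places ERG under androgen control and is the most common gene fusion of prostate cancer. In RWPE1, by contrast, ERG came from an introduced construct. EWS is an RNA-binding protein known for its own fusions with ETS factors in Ewing's sarcoma.

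Each list gives a chromosome, a start and an end for each peak in genome build hg19, with no height or score. Read depth is unknown, so a site missing from a list was not called there and is not shown to be unbound. Median peak width was 719 bp in VCaP, 608 bp in replicate 1 and 501 bp in replicate 2. VCaP peaks covered 10.09 Mb, against 1.298 Mb and 1.119 Mb. Peaks over 2000 bp numbered 477 in VCaP, 11 in replicate 1 and 5 in replicate 2. With 1 VCaP list against 2 RWPE1 lists, an exact permutation test (one-sided) could not give a p below 0.333, so no test between the lines was made. Instead, both RWPE1 replicates are given side by side wherever a value exists for each. With 1 VCaP list, values of VCaP itself have no replicate spread. Shares carry exact (Clopper-Pearson) 95% intervals, which cover counting error only. They treat peaks as independent, although many peaks are crowded together. Intervals that stand apart are therefore a description and not a test. For a count of 0, the limit given is 3 counts of the total. Positions were not assigned to genes, exons or introns, since an hg19 annotation was not used here.

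Most ERG peaks of either line had no counterpart in the other. Peaks of different lists that had 1 bp or more in common were called shared. A replicate 1 peak lay at 163 VCaP peaks, 2.11% of the VCaP list (1.80% to 2.46%), and a replicate 2 peak at 89, or 1.15% (0.928% to 1.42%). Read from the RWPE1 side, the same pairs made up 8.57% of replicate 1 and 4.56% of replicate 2. The share of replicate 1 was thus 1.88 times that of replicate 2, which shows how widely replicates of 1 group differed. Each shared VCaP peak met exactly 1 peak of a given replicate and the reverse. In base pairs, the overlap with replicate 1 took up 7.77% of the length covered by that list, and the overlap with replicate 2 took up 3.84% of it.

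Whether the lines shared fewer sites than the replicates of RWPE1 did depended on the length of the VCaP list. Replicate 1 peaks were found in replicate 2 at 6.05% (5.02% to 7.22%), which is less than the 8.57% found in VCaP. For replicate 2 the order was the opposite, with 5.94% in replicate 1 (4.93% to 7.08%) and 4.56% in VCaP. The VCaP list is the longer, however, and with only its 1953 first listed peaks the shares at VCaP fell by over 1.5 times, to 5.10% of replicate 1 (4.16% to 6.19%) and 2.25% of replicate 2 (1.64% to 3.01%). At this matched length VCaP lay below the other replicate for both RWPE1 lists, with intervals that overlapped for replicate 1 and did not for replicate 2. EWS lists of RWPE1 give a reference from another antibody. In the EWS list from wild-type ERG cells, 0.526% of peaks (0.355% to 0.750%) lay at a VCaP ERG peak, and in that from P436A cells, 0.672% (0.348% to 1.17%). Both ERG lists of RWPE1 were above these values, with intervals that did not overlap. Set against the VCaP EWS list instead, only replicate 1 stood apart. Its peaks lay at a VCaP EWS peak at 1.315% (0.853% to 1.935%). For replicate 2 this share was 3.69% (2.90% to 4.62%), and its interval overlapped that of the 4.56% at VCaP ERG (3.675% to 5.58%).

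Where ERG peaks of both lines met, their centres lay close together in replicate 1. The median distance between centres was 87 bp for the 163 pairs of VCaP and replicate 1, and 132 of them (81.0%) were within 250 bp. The pairs formed by both replicates were spaced alike, with a median of 86.8 bp and 79.3% within 250 bp. Pairs of VCaP and replicate 2 were less tightly aligned, with a median of 222 bp and 50 of 89 pairs (56.2%) within 250 bp. The replicate 1 peak was held whole inside the VCaP peak in 96 pairs (58.9%), and the replicate 2 peak in 37 (41.6%). Under a stricter rule, in which the overlap had to cover 0.5 of both peaks, 110 replicate 1 peaks (5.79%) and 38 replicate 2 peaks (1.95%) were still shared.

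VCaP peaks fell into 4 classes by their RWPE1 counterparts. A peak of both replicates was present at 21 VCaP peaks, a peak of replicate 1 alone at 142, of replicate 2 alone at 68, and of neither at 7481 (97.0% of the list). In all, 231 VCaP peaks (2.995%) had an RWPE1 counterpart. This value depended on both replicates, since it was 1.15% without replicate 1 and 2.11% without replicate 2.

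VCaP peaks near the top of the deposited list had RWPE1 counterparts more often than those near its end. The list order is not documented as a ranking, but width fell along it (Spearman correlation across peaks −0.771, peaks not being independent replicates). Of the 772 peaks in the first 10% of the list, 56 had a replicate 1 peak (7.25%, 5.53% to 9.32%) and 23 a replicate 2 peak (2.98%, 1.90% to 4.44%). In the last 10%, 5 of 771 (0.649%, 0.211% to 1.51%) had a counterpart in each. Both replicates, and the ERG P436A list with 35 peaks in the first 10% and 4 in the last, fell in the same direction. With every peak set to 500 bp around its centre, the first 10% still had 47 peaks with replicate 1 and 18 with replicate 2, against 4 and 5 in the last. Peaks found with both replicates had a median place at 15.6% of the list, those with exactly 1 replicate at 21.3% and those with neither at 50.9%.

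**Figure D1:**
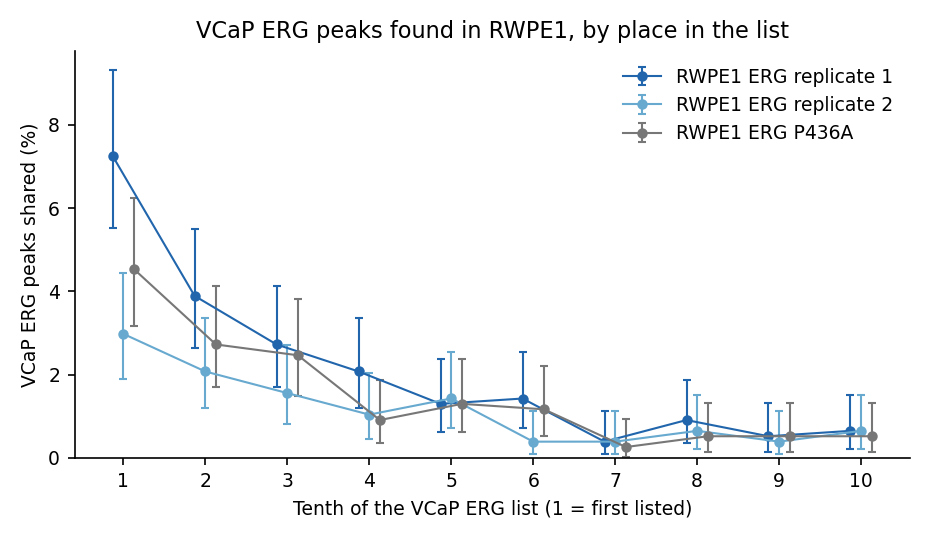
The share of VCaP ERG peaks that overlap a peak of each RWPE1 ERG list (%, y axis) is plotted by successive 10% of the VCaP list in deposited order (x axis). Points are shares of 771 or 772 peaks, bars are exact 95% intervals, and the share with replicate 1 goes from 7.25% in the first 10% to 0.649% in the last.

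Within classes of width up to 2000 bp, earlier listed VCaP peaks were shared more often, though the intervals did not always stand apart. Among VCaP peaks over 600 and up to 1000 bp, 72 of 1873 in the earlier 3856 peaks of the list had an RWPE1 counterpart (3.84%, 3.02% to 4.82%), against 15 of 1203 in the later 3856 (1.25%, 0.700% to 2.05%). Peaks over 1000 and up to 2000 bp were shared most often, at 93 of 1298 (7.16%, 5.82% to 8.71%). Peaks of at most 600 bp were shared at 37 of 2861 (1.29%, 0.912% to 1.78%). By place in the list, peaks of at most 600 bp had 2.24% (0.972% to 4.37%) in the earlier part and 1.16% (0.777% to 1.66%) in the later, with intervals that overlapped. Peaks over 1000 and up to 2000 bp had 7.94% (6.45% to 9.65%) and 0.719% (1 of 139, 0.0182% to 3.94%). Those over 2000 bp had 2.78% (13 of 467, 1.49% to 4.71%) and 10% (1 of 10, 0.253% to 44.5%). That reverse order rested on few later peaks, with intervals that overlapped. The widest class did not continue the order of width, as 14 of the 477 peaks over 2000 bp (2.94%, 1.61% to 4.88%) had a counterpart, although these peaks made up 44.8% of all base pairs in VCaP peaks. In RWPE1 the earlier parts of both lists were also shared more. Of the first 950 replicate 1 peaks 12% had a VCaP peak (10.0% to 14.2%), and of the later 951 peaks 5.15% (3.84% to 6.76%). In replicate 2 these shares were 6.05% (4.63% to 7.73%) of 976 and 3.07% (2.08% to 4.36%) of 977. Among the pairs themselves the order did not carry over, with Spearman correlations of list positions of 0.041 between VCaP and replicate 1 and 0.0058 between VCaP and replicate 2. Between the RWPE1 replicates it was 0.524 over 116 pairs.

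The 21 regions found in all 3 lists form the set seen in both lines and in each replicate. They lay on 9 chromosomes, and 13 of them on chromosomes 5, 9 and 20, which had the most. In that order these chromosomes held 9.30%, 4.34% and 4.08% of all VCaP peaks. They held 11.6%, 6.26% and 8.42% of replicate 1, and 12.8%, 19.4% and 15.4% of replicate 2. Replicate 2 was thus itself concentrated there. The stretch common to the 3 peaks had a median of 510 bp (203 to 909 bp) and reached 300 bp in 20 regions. The VCaP peak was the widest in 13 regions and each replicate in 4. VCaP peaks there had a median width of 1046 bp, against 719 bp over the list. Replicate 1 peaks had 793 bp against 608 bp, and replicate 2 peaks 581 bp against 501 bp. Overlap is likelier for wider peaks, so these widths only describe the set. Of the 21, 12 stood in the first 20% of the VCaP list, 14 in that of replicate 1 and 12 in that of replicate 2, and 5 in the first 20% of all 3.

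The first listed of these regions is on chromosome 1, where the VCaP peak ran from 2186166 to 2188328 and stood at place 8 of the list. The replicate 1 peak ran from 2186561 to 2188156 and the replicate 2 peak from 2187594 to 2188091, so that the latter lay whole within both others. On chromosome 5, a VCaP peak of 3229 bp from 180648762 to 180651990 held a replicate 1 peak of 1000 bp and a replicate 2 peak of 909 bp, with 909 bp common to all. It was also the region with the longest common stretch. On chromosome 11, the VCaP peak from 65184733 to 65191689 was the widest of the set, at 6957 bp. Both RWPE1 peaks there sat at the same place on its left flank, with centres at -1770 bp and -1844 bp from that of the VCaP peak, the largest offsets among the 21 regions.

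Further regions of the set were centred more closely. On chromosome 9, the VCaP peak from 130213174 to 130214313 held both RWPE1 peaks, which ended on the same base, 130213968. On chromosome 20, the VCaP peak from 352305 to 353299 and the replicate 1 peak from 352292 to 353300 were nearly coextensive, with centres 6 bp apart, and that of replicate 2 was 1 bp from VCaP. The other regions among the first 10 listed were on chromosome 5 from 158689590 to 158690988 and from 141229063 to 141230060, on chromosome 17 from 79818265 to 79819679, and on chromosome 20 from 50807693 to 50808910, from 34638332 to 34639450 and from 61407873 to 61409018. In 4 of the later regions, on chromosome 9 from 132096160 to 132096963 and from 110912791 to 110913287, chromosome 1 from 40525011 to 40525775 and chromosome 17 from 41400277 to 41400942, both RWPE1 peaks were wider than that of VCaP. These 4 regions and the one on chromosome 20 from 352305 were picked after their values were seen.

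**Figure D2:**
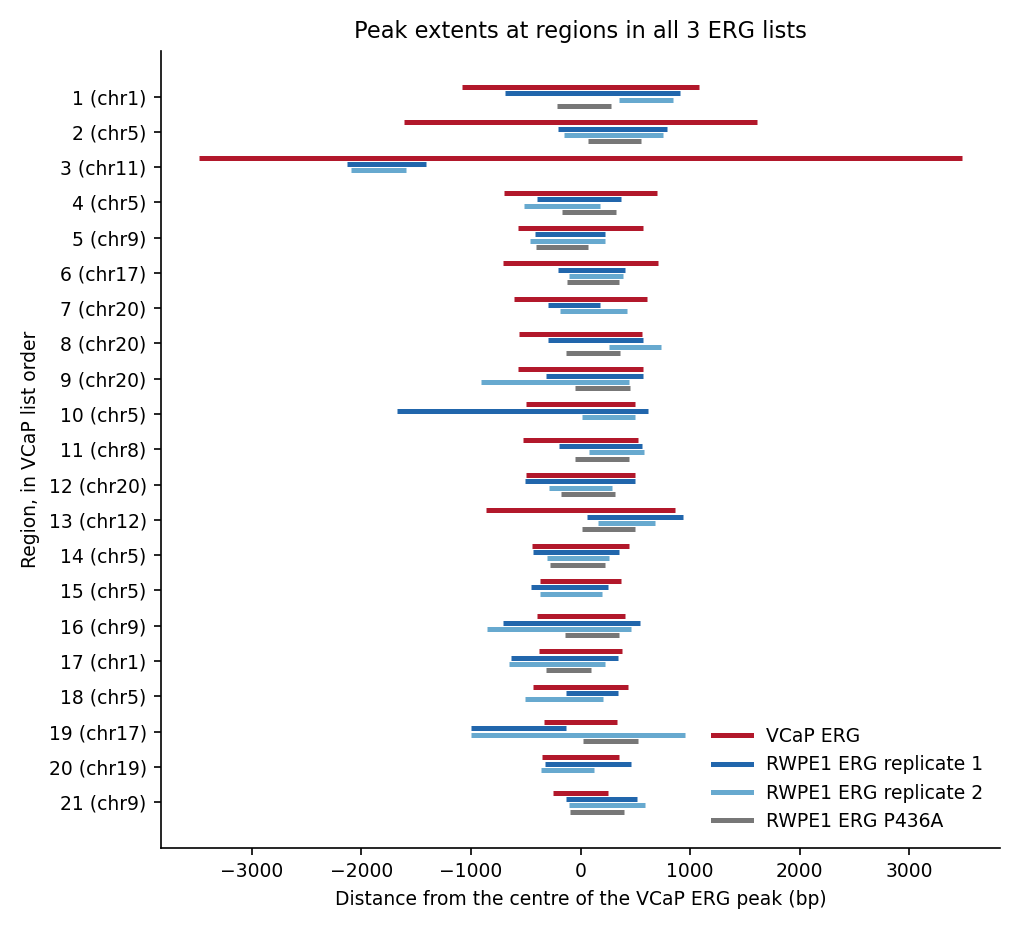
The horizontal bars span the ERG peaks at the 21 regions with a peak in VCaP and in both RWPE1 replicates, drawn as distance in bp from the centre of the VCaP peak (x axis) and ordered by the VCaP list (y axis), with ERG P436A peaks where present. Most RWPE1 peaks overlie the VCaP centre, whereas in the third region, on chromosome 11, both sit to its left, at -1770 bp and -1844 bp.

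ERG P436A in RWPE1 took no part in choosing these classes. Of all VCaP ERG peaks, 1.49% had an ERG P436A peak (115 of 7712). The share was 71.4% (15 of 21, 47.8% to 88.7%) at VCaP peaks with both wild-type replicates, 14.8% (21 of 142, 9.39% to 21.7%) at those with replicate 1 alone and 8.82% (6 of 68, 3.31% to 18.2%) at those with replicate 2 alone. It was 0.976% (73 of 7481, 0.766% to 1.23%) at those with neither. The interval of the first class did not overlap those of the others. With peaks set to 500 bp, the shares were 76.5% with both replicates, 14.1% with exactly 1 and 0.893% with neither. Thus 15 regions had a peak in all 4 ERG lists.

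RWPE1 sites with a VCaP peak were also found with P436A more often than those without. The intervals overlapped once sites were split by presence in the other replicate. ERG P436A was present at 21.5% of the replicate 1 peaks with a VCaP peak (35 of 163, 15.4% to 28.6%) and at 10.7% of those without (186 of 1738, 9.29% to 12.2%), against 11.6% of the whole list. For replicate 2 the shares were 23.6% (21 of 89, 15.2% to 33.8%) and 6.01% (112 of 1864, 4.97% to 7.18%), against 6.81% of the list. The direction was the same in both replicates, with intervals that did not overlap in either. Among sites already found in both replicates, 15 of 21 with VCaP and 39 of 94 without (41.5%, 31.4% to 52.1%) had a P436A peak, and these intervals did overlap. Replicate 1 peaks absent from replicate 2 had 14.1% with VCaP (20 of 142, 8.82% to 20.9%) and 8.94% without (147 of 1644, 7.61% to 10.4%). Replicate 2 peaks absent from replicate 1 had 10.3% (7 of 68, 4.24% to 20.1%) and 4.13% (73 of 1769, 3.25% to 5.16%). These intervals overlapped as well. Shared sites stood earlier in each list, as above, and the part of list position in these shares was not tested.

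**Figure D3:**
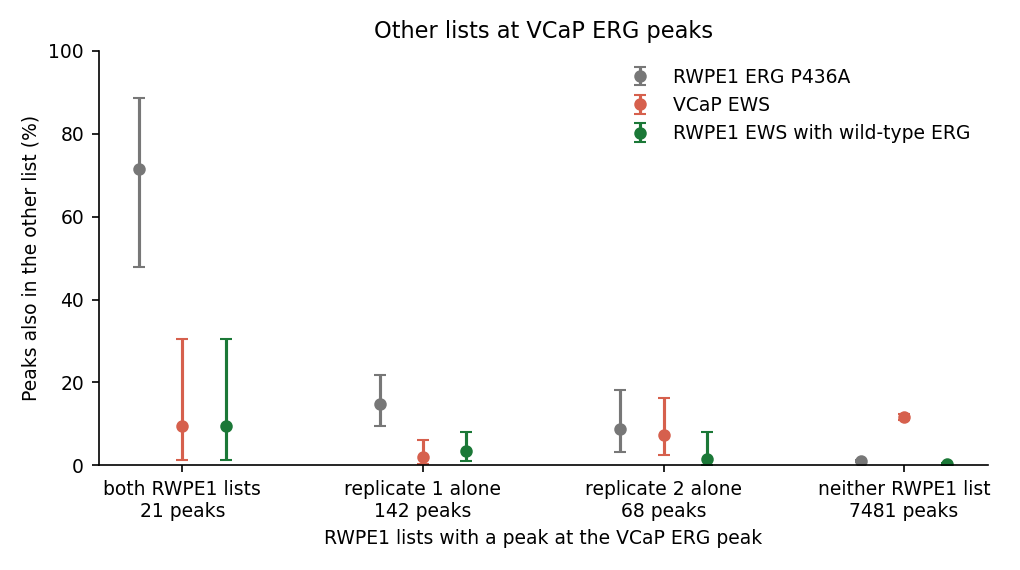
The share of VCaP ERG peaks (%, y axis) that also overlap a peak of ERG P436A, VCaP EWS or RWPE1 EWS is shown for 4 classes of VCaP peak (x axis). Points are shares with exact 95% intervals, and ERG P436A goes from 71.4% of the 21 peaks with both replicates to 0.976% of the 7481 with neither.

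EWS peaks of the same cells were less frequent at ERG sites found in both lines than at other sites. The intervals of both kinds of site stood apart in the VCaP list and in replicate 1. In VCaP, where 11.3% of all ERG peaks had a VCaP EWS peak, the share was 4.33% (10 of 231, 2.10% to 7.82%) with an RWPE1 counterpart and 11.5% (863 of 7481, 10.8% to 12.3%) without. With peaks set to 500 bp these were 0.481% and 7.24%. Without replicate 1 the share with a counterpart was 7.87% (7 of 89, 3.22% to 15.5%), an interval that held the 11.4% of the other VCaP peaks, so the separation in VCaP rested on replicate 1. EWS of RWPE1 cells with wild-type ERG went the other way at VCaP ERG peaks. It was at 3.46% of those with a counterpart (8 of 231, 1.51% to 6.71%) and 0.307% of those without (23 of 7481, 0.195% to 0.461%). In replicate 1, EWS of the same cells was at 3.07% of peaks with VCaP (5 of 163, 1.00% to 7.01%) and 9.84% of those without (171 of 1738, 8.48% to 11.3%). In replicate 2 it was at 2.25% (2 of 89, 0.273% to 7.88%) and 3.27% (61 of 1864, 2.51% to 4.18%), with intervals that overlapped. Crowding moved with these values. Outside megabases with 10 or more peaks of the 3 lists, EWS was at 7.25% of replicate 1 peaks with VCaP (5 of 69) and at 7.52% of those without (82 of 1091), with intervals that overlapped. In VCaP it was at 0 of 90 peaks, which allows up to 3.33% at 3 counts, against 1.30% (44 of 3384). Within crowded megabases the intervals stood apart in VCaP, at 7.09% (10 of 141, 3.45% to 12.66%) and 19.99% (819 of 4097, 18.78% to 21.25%). Thus 819 of the 863 VCaP peaks lay there. Replicate 1 had 0 of 94 there (exact interval up to 3.85%) and 13.76% (89 of 647, 11.19% to 16.65%). In replicate 2 the intervals overlapped there, with 1 of 64 and 39 of 885. Over all VCaP ERG peaks, EWS of VCaP, of RWPE1 with wild-type ERG and of P436A cells was at 11.3%, 0.402% and 0.156%. At the 21 regions in all 3 ERG lists these EWS lists had 2, 2 and 1. VCaP EWS was thus at 9.52% of them (1.175% to 30.4%). In any list, 17 of the 21 had no EWS peak, which is not particular to them, as most VCaP peaks had none. The exceptions were the regions on chromosome 5 from 180648762 and chromosome 11 from 65184733, with VCaP EWS, the latter and that on chromosome 17 from 41400277, with RWPE1 EWS, and that on chromosome 9 from 132096160, with EWS of P436A cells.

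VCaP peaks with a single RWPE1 counterpart mostly had it in replicate 1. It was in replicate 1 at 142 of 210 (67.6%) and in replicate 2 at 68 (32.4%). Of the first 10 listed, 9 had a replicate 1 peak and 1 a replicate 2 peak, at chromosome 5 from 137910532 to 137912006. Upstream in coordinates on the same chromosome, the VCaP peak from 137878182 to 137879724 had a replicate 1 peak only, from 137878353 to 137879053. The first listed of the class, on chromosome 22 from 18879812 to 18880259, was also its narrowest at 448 bp, and held the narrowest replicate 1 peak at 278 bp. Peaks on chromosome 8 from 145132845 to 145134232, chromosome 20 from 30262352 to 30263633 and chromosome 12 from 48499071 to 48500696 had a replicate 1 and an ERG P436A peak. Over the class, ERG P436A was at 12.9% (27 of 210). The remaining ones were on chromosome 18 from 3261349 to 3262686, chromosome 5 from 180236347 to 180238537 and from 148724282 to 148725561, and chromosome 4 from 187111710 to 187113334.

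VCaP ERG peaks with neither wild-type RWPE1 replicate were led by very wide regions of a few chromosomes. The first listed, on chromosome X from 66850199 to 67034963, spanned 184765 bp, and 2 more on that chromosome, from 66063045 to 66145392 and from 66713905 to 66846523, spanned 82348 bp and 132619 bp. Of the first 10 listed, 5 were on chromosome 13 between 110316989 and 111807759, and 2 on chromosome 11, from 64080243 to 64087362 and from 64003293 to 64011522. A VCaP EWS peak lay in 7 of these 10, and an ERG P436A peak in 0. Over all VCaP peaks with neither replicate the shares were 11.5% and 0.976%, so 0 of 10 with ERG P436A is near that of the class. Among the first 10 found with both replicates these counts were 2 and 7. The first 10 with neither replicate were 5975 to 184765 bp wide, against 998 to 6957 bp for the others, and the part of width in these counts was not tested. Some of the densest VCaP megabases had no RWPE1 peak and others did. The megabase from 63 to 64 Mb of chromosome 11 held 222 VCaP ERG peaks by their centres and 0 of either replicate. On chromosome 6 from 20 to 21 Mb and chromosome 13 from 109 to 110 Mb, 167 and 121 VCaP peaks stood against 0 in both replicates. The VCaP EWS list was also crowded in these megabases of chromosomes 11, 6 and 13, with 219, 171 and 160 peaks. The crowding there was thus not particular to ERG. On chromosome 11, the megabase from 64 to 65 Mb held 155 VCaP peaks, 4 of replicate 1 and 3 of replicate 2, with 4 VCaP peaks shared. The next, from 65 to 66 Mb, held 125, 3 and 2, with 2 shared. Copy number and input signal in these blocks were not analysed here.

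ERG peaks seen in RWPE1 alone were led by unlike regions in each replicate. The first 10 listed replicate 1 peaks without VCaP included 3 on chromosome 2, from 89874405 to 89875917, from 133026005 to 133031578 and from 133011693 to 133013693, and 2 on chromosome 16, from 33957367 to 33959808 and from 33962525 to 33964605. EWS of the same cells had a peak at 8 of these 10, and replicate 2 at 1, on chromosome 1 from 199241361 to 199242652. Over all replicate 1 peaks without VCaP these shares were 9.84% and 5.41%. In replicate 2, 7 of the first 10 lay within 27088 bp of chromosome 22, from 29669209 to 29696296, where VCaP ERG and replicate 1 had 0 peaks, ERG P436A 3, VCaP EWS 3, EWS of P436A cells 4 and EWS of wild-type cells 0. None of these first 10 replicate 2 peaks was in replicate 1. Over all replicate 2 peaks without VCaP this share was 5.10% (95 of 1864), so 0 of 10 is near that of the class. A crowded block set the replicates apart too. From 195 to 200 Mb of chromosome 1 there were 144 replicate 1 peaks, 5 of replicate 2 and 0 of VCaP. This block was not particular to ERG replicate 1. EWS of wild-type cells had 422 peaks there, EWS of P436A cells 60, ERG P436A 45 and VCaP EWS 0. From 13 to 14 Mb of chromosome 19 there were 59 of replicate 2, 0 of replicate 1, 10 of VCaP and 1 of each other list.

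The lists were spread unequally over the chromosomes, and on chromosomes 1 and 9 the replicates also differed widely from each other. Chromosome 11 held 13.6% of VCaP peaks, against 2.63% of replicate 1 and 2.66% of replicate 2. Chromosomes 6 and 13 also held more of VCaP, with 7.74% and 5.94%, than of either replicate, with at most 4.37% and 1.42%. Chromosome 20 held 4.08% of VCaP peaks against 8.42% and 15.4%. Chromosome 1 held 21.4% of replicate 1 but 6.76% of replicate 2 and 5.96% of VCaP, whereas chromosome 9 held 19.4% of replicate 2 but 6.26% and 4.34% of the others. Across chromosomes 1 to 22 and X, the Spearman correlation of these shares was 0.552 between VCaP and replicate 1, 0.369 between VCaP and replicate 2, and 0.682 between the replicates, a description that chromosome length enters.

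The share of VCaP peaks with an RWPE1 counterpart differed between chromosomes. It was 9.52% on chromosome 20 (30 of 315, 6.52% to 13.3%) and 7.16% on chromosome 9 (24 of 335, 4.64% to 10.5%). It was 1.05% on chromosome 11 (11 of 1050, 0.524% to 1.87%), 1.01% on chromosome 6 (6 of 597, 0.370% to 2.18%) and 0.873% on chromosome 13 (4 of 458, 0.239% to 2.22%). Seen from RWPE1 the order was different. On chromosome 11, 14.0% of replicate 1 peaks (7 of 50, 5.82% to 26.7%) and 9.62% of replicate 2 peaks (5 of 52, 3.20% to 21.0%) had a VCaP peak. On chromosome 1 these shares were 3.94% (16 of 406, 2.27% to 6.32%) and 3.03% (4 of 132, 0.832% to 7.58%). Chromosome 19 had the highest share of replicate 1 among chromosomes with at least 20 of its peaks, 23.8% (10 of 42, 12.1% to 39.5%), and 8.74% of replicate 2 (9 of 103, 4.07% to 15.9%).

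**Figure D4:**
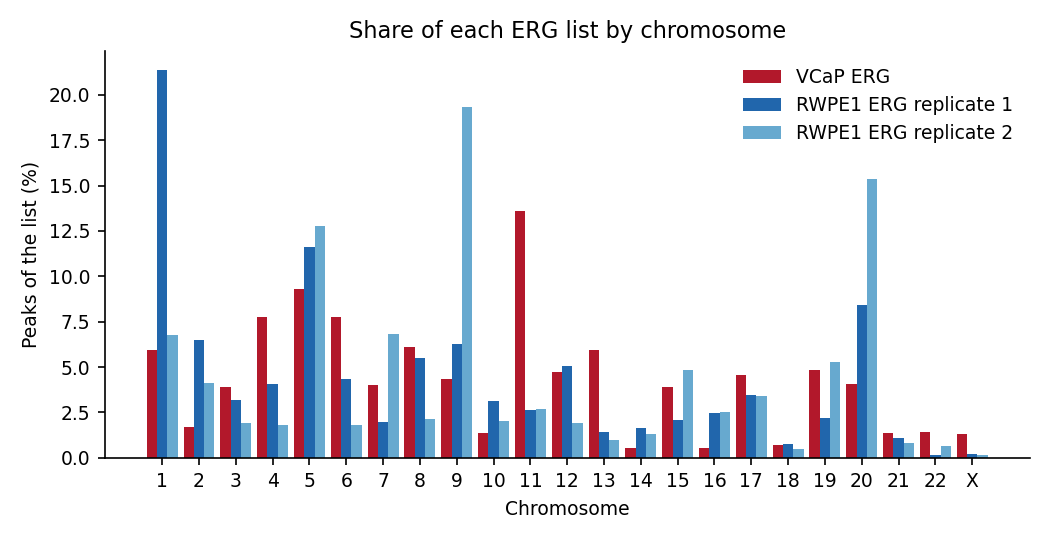
Bars give the share of each ERG list (%, y axis) on chromosomes 1 to 22 and X (x axis) for VCaP and both RWPE1 replicates. VCaP stands out on chromosome 11 with 13.6%, replicate 1 on chromosome 1 with 21.4% and replicate 2 on chromosome 9 with 19.4%.

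Replicate 1 met VCaP at more exact sites, whereas replicate 2 lay nearer to VCaP peaks at longer range. Within 1 kb of a VCaP peak there were 9.78% of replicate 1 peaks (8.48% to 11.2%) and 6.81% of replicate 2 peaks (5.73% to 8.02%). Within 100 kb the order turned, to 38.0% (35.8% to 40.2%) and 51.6% (49.3% to 53.8%). Both crossed between 5 kb, with 12.1% and 11.5%, and 10 kb, with 14.4% and 16.4%. The median distance to the nearest VCaP peak was 193 kb for replicate 1 and 93.5 kb for replicate 2. Without chromosome 1, where replicate 1 is crowded, 43.7% (41.2% to 46.3%) and 52.8% (50.4% to 55.1%) lay within 100 kb, so the order was kept at that distance. Near misses were more common in replicate 2, where 44 peaks were within 1 kb of a VCaP peak without overlapping it, against 23 of replicate 1. In megabases where VCaP had no peak lay 33.2% of replicate 1 peaks and 17.3% of replicate 2 peaks.

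**Figure D5:**
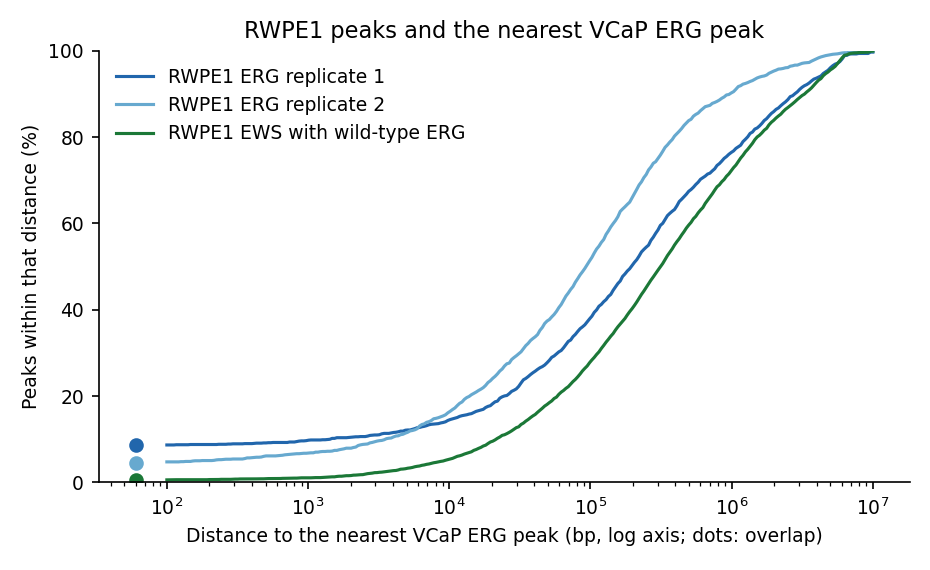
The cumulative share of RWPE1 peaks (%, y axis) is plotted against distance to the nearest VCaP ERG peak in bp (x axis, log scale) for both ERG replicates and for EWS with wild-type ERG, and dots give overlapping peaks. Replicate 1 starts higher, at 8.57% against 4.56%, and replicate 2 is higher at 100 kb, at 51.6% against 38.0%.

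Crowded megabases held 55.0% of VCaP peaks, 39.0% of replicate 1 and 48.6% of replicate 2. Within them 12.7% of replicate 1 peaks (94 of 741, 10.4% to 15.3%) and 6.74% of replicate 2 peaks (64 of 949, 5.23% to 8.53%) were shared with VCaP. Elsewhere these shares were lower, at 5.95% (69 of 1160, 4.66% to 7.47%) and 2.49% (25 of 1004, 1.62% to 3.65%), and 4 of the 21 regions in all 3 lists were outside crowded megabases. For VCaP the shares with an RWPE1 counterpart were 3.33% (141 of 4238, 2.81% to 3.91%) within and 2.59% (90 of 3474, 2.09% to 3.18%) elsewhere, with intervals that overlapped. These megabases were defined by the number of peaks in the same lists, so the values describe them only.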

How the data were processed

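ChIP-seq peak lists of 7 samples were read, and the 3 input samples were not analysed here. Each deposited list holds positions in base pairs, made by the authors and given without a header. Reads were aligned with Bowtie2 (version given as 0.12.8) to hg19, according to the submitters' processing notes. How peaks were called, at what threshold and against which control is not given in the sources used here. Libraries were made from DNA sheared to about 150 nt and size-selected at 200 to 300 nt, per the labels' protocols. Depth is unknown.

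Starts were read as 0-based and written as 1-based. Overlaps were counted with own code, tested on simulated lists and against bedtools 2.31.1, in Python 3.11.15 with NumPy 2.4.6 and SciPy 1.17.1. Megabases with 10 or more peaks of the 3 lists, by their centres, were called crowded. Regions eligible to be named were the first 10 listed of each class. The planned analyses of start sites, motifs and gene lists, and the planned sequences, were not run, since the tables at hand are of another genome build. The comparison, its classes and lists were chosen with earlier results of these data known. Alternatives were other overlap rules, widths, chromosomes, list lengths and crowding, and leaving out each replicate. Leaving out chromosome 1 was added after the data were seen.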

Additional observations from a re-analysis of the deposited data

How the results depend on the processing

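For 16 results, 100 values were computed under alternative settings, and 60 stayed within the interval or replicate spread of the reported value. The count of sites with both lists was instead judged by a fixed factor around its value. Centres within 500 bp and peaks set to 500 bp gave the same values where both were computed, and were counted separately. With a reciprocal overlap of 0.5, the shares at VCaP were 5.79% of replicate 1 and 1.95% of replicate 2. VCaP peaks were then shared at 1.43% with replicate 1, 0.493% with replicate 2, 1.79% with either and at 10 sites with both. ERG P436A was at 7.81% of those with exactly 1 replicate, 10.9% with either and 0.409% with neither. VCaP EWS was at 0% (0 of 138, up to 2.17% at 3 counts) and 2.51%, EWS was at 6.98% of replicate 1 peaks without VCaP, and median list positions were 28.3% and 50.5%. No VCaP EWS or ERG P436A peak was wider than 501 bp. Wide VCaP ERG peaks therefore could not meet this rule with those lists, which lowers their shares by construction. With peaks set to 500 bp, VCaP EWS was at 0.481% (1 of 208) and 7.24%. In the first listed part of 50% of each list, 10.1% of replicate 1 peaks had VCaP, and VCaP peaks were shared at 2.49% with replicate 1, 3.42% with either and at 11 sites with both. With VCaP cut to 1953 peaks, the values were 5.10% and 2.25% of the replicates, 4.97%, 2.25% and 6.55% of VCaP with replicate 1, replicate 2 and either, and 13 sites with both. Outside crowded megabases they were 5.95% and 2.49% of the replicates, 0.720% of VCaP with replicate 2, 2.59% with either, and 4 sites with both. ERG P436A was then at 12.2% of peaks with either, VCaP EWS at 0% (0 of 90) and 1.30%, and EWS at 7.25% and 7.52% of replicate 1 peaks with and without VCaP. Leaving out 1 replicate gave 1.15% to 2.11% of VCaP peaks shared. ERG P436A was then at 22.1% to 23.6% of shared and 1.046% to 1.23% of other VCaP peaks, and VCaP EWS at 3.07% to 7.87% and 11.4% to 11.5%. Shares moved in both directions where lists were cut, and the causes were not tested. Without replicate 1, the interval of the 7.87% (3.22% to 15.5%) held the 11.4% of other VCaP peaks. No paired analysis was possible because the replicate numbers of the RWPE1 ERG lists recur only in the VCaP inputs, not analysed here. Start sites, motifs, repeats and gene lists were not analysed under any setting, as no hg19 annotation was used here. Unknown depth limits every share.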

Other observations

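ERG P436A added VCaP sites that neither wild-type list held. Of the VCaP ERG peaks, 73 had an ERG P436A peak and no wild-type RWPE1 peak, which brought the VCaP peaks with any of the 3 RWPE1 ERG lists to 304 (3.94%). The ERG P436A list itself had 115 of its 1746 peaks at a VCaP ERG peak (6.59%, 5.47% to 7.85%), a share between those of the wild-type replicates. Its median distance to the nearest VCaP ERG peak, 120449 bp, also lay between theirs. No VCaP ERG peak had a peak in all 6 other lists, and 2 had an RWPE1 ERG peak together with EWS in both VCaP and RWPE1 with wild-type ERG, on chromosome 11 from 65184733 to 65191689 and on chromosome 13 from 110940777 to 110973057. The latter region was picked after its values were seen.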
